A study of Mus musculus with 8 samples.

Results

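The genes described are 29 that encode lysosomal hydrolases, lysosomal membrane proteins and the factors that serve them, taken by name from a table of raw read counts with 55450 genes. Each name matched 1 row, and all 29 had enough counts to be tested, as did 16467 genes in the whole table. The cathepsins, the main lysosomal proteases, are not among them. The study asked how macrophages suppress immunity in brain tumors, and 8 libraries were analysed here: 3 of microglia, the resident macrophages of the brain, and 5 of bone marrow-derived macrophages (BMDM), which enter the tumor from the blood. Both were sorted by flow cytometry from gliomas that GL261 cells, an established mouse line, had formed in mouse brains. The labels give the genotype WT for all 8 libraries and no age. Both gates took F4/80+ CD11b+ LY6G- cells with LY6C low or absent. Microglia were CD45 low with CD49d low or absent, and BMDM were CD45+ and CD49d high. Both groups therefore came from tumor tissue, and all tumors from 1 cell line. Nothing in the labels ties a library to a mouse. The spread behind each p-value is that between libraries and may be technical.

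Lysosomes are acidic organelles in which enzymes cut up proteins, glycans, sulfated sugars and lipids that a cell has engulfed or recycled. Soluble hydrolases are made in the endoplasmic reticulum and carried there by sorting receptors, while heavily glycosylated membrane proteins line the organelle. The transcription factor TFEB and its relatives bind a short element shared by many lysosomal promoters and raise these genes together. Loss of most of the enzymes causes a lysosomal storage disease, often with damage to the brain, and macrophages and microglia depend on lysosomes to digest what they engulf.

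RNA was measured by 3′ sequencing, which counts reads at the end of each transcript. Levels are given in CPM, counts brought to a common library size by the TMM method. They are not divided by transcript length. A level is compared between libraries rather than between genes, and ratios and shares of genes within a library are likewise compared between libraries. Library totals ran from 5890406 to 16659154 counts. In bulk libraries of sorted cells, fewer cells with a transcript and less transcript per cell cannot be told apart. The sort was reflected in its marker genes. Sall1 and P2ry12, which mark microglia, were 14.9-fold and 13.1-fold higher in microglia, and Ccr2, of monocyte-derived cells, was 29.8-fold higher in BMDM. Itga4, which encodes the gated CD49d, was 6.32-fold higher in BMDM. Summed over 11 microglia markers the separation was smaller, with 2312 to 7226 CPM in microglia and 727 to 1621 in BMDM. For 12 markers of monocyte-derived macrophages the sums were 124 to 294 CPM in microglia and 1610 to 2115 in BMDM. The BMDM libraries fell into BMDM 1 to 3 and BMDM 4 and 5 on 2 measures. Gm42418, a gene model with very many reads, took 14.8% to 19.8% of their counts, against 41.2% and 48.9% in BMDM 4 and 5 and 34.0% to 47.0% in microglia. Genes with a count numbered 20011 to 21778 in BMDM 1 to 3 and 17572 to 22809 in microglia, which overlap, but 13346 and 14638 in BMDM 4 and 5. Values with only BMDM 1 to 3, or only BMDM 4 and 5, are therefore set beside those from all 5. The summed CPM of 10 neutrophil markers was 64.5 to 120 in BMDM and 37.7 to 42.5 in microglia. That of 11 T, NK and B cell markers was 22.7 to 99.9 against 5.23 to 10.9, and that of 6 dendritic cell markers 2.90 to 69.5 against 1.74 to 4.53. For 10 markers of neurons and glia it was 88.3 to 133 in BMDM and 192 to 252 in microglia. Endothelial and pericyte markers summed to 33.3 to 49.1 against 22.8 to 34.4, and markers of dividing cells to 191 to 294 against 265 to 342. No marker on these lists was at 0 in all 8 libraries, and the part of such cells in the results below was not tested.

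Compared between BMDM and microglia, the 29 genes had log2 fold changes from -3.00 (Arsb) to 2.37 (Psap) with a median near 0. None of the 29 passed an adjusted p of 0.05 (edgeR quasi-likelihood, Benjamini-Hochberg over the whole table), as 1.93% of all genes did, 1.11% with BMDM higher and 0.814% with BMDM lower. At an unadjusted p under 0.05, 5 were higher, Psap, Sgsh, Cd68, Lipa and Npc2, and 2 were lower, Arsb and Lamp2. Over all genes 6.49% were higher and 7.27% lower at that level. DESeq2 called Psap and Npc2 higher and none lower (3.74% and 1.95% of all genes). Weighted limma-voom called 4 higher, Psap, Cd68, Lipa and Npc2, and 3 lower, Npc1, Gaa and Lamp2 (6.46% and 10.1%), and edgeR without a count filter Psap higher and Arsb lower (1.29% and 1.02%). Of the 29, 15 had a positive and 14 a negative log2 fold change (BMDM minus microglia, as throughout), with a median of 0.01, against 0.08 over all genes tested. The depth and spread left wide intervals. For 27 of the 29 the 95% interval reached past a log2 fold of 1 in at least 1 direction, so the lack of calls does not show equal levels. The exceptions were Lamp1 (-0.58 to 0.98) and Man2b1 (-0.67 to 0.88). Groups did not overlap for Npc2, with BMDM above (4.32% of all genes), and for Lamp2 and Arsb, with BMDM below (8.66%). Among the 9055 tested genes with a mean CPM at least that of the lowest of the 29, these shares were 6.33% and 11.3%. The highest BMDM library was at least 5 times the lowest for 7 of the 29, against 33.3% of those 9055 genes.

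**Figure D1:**
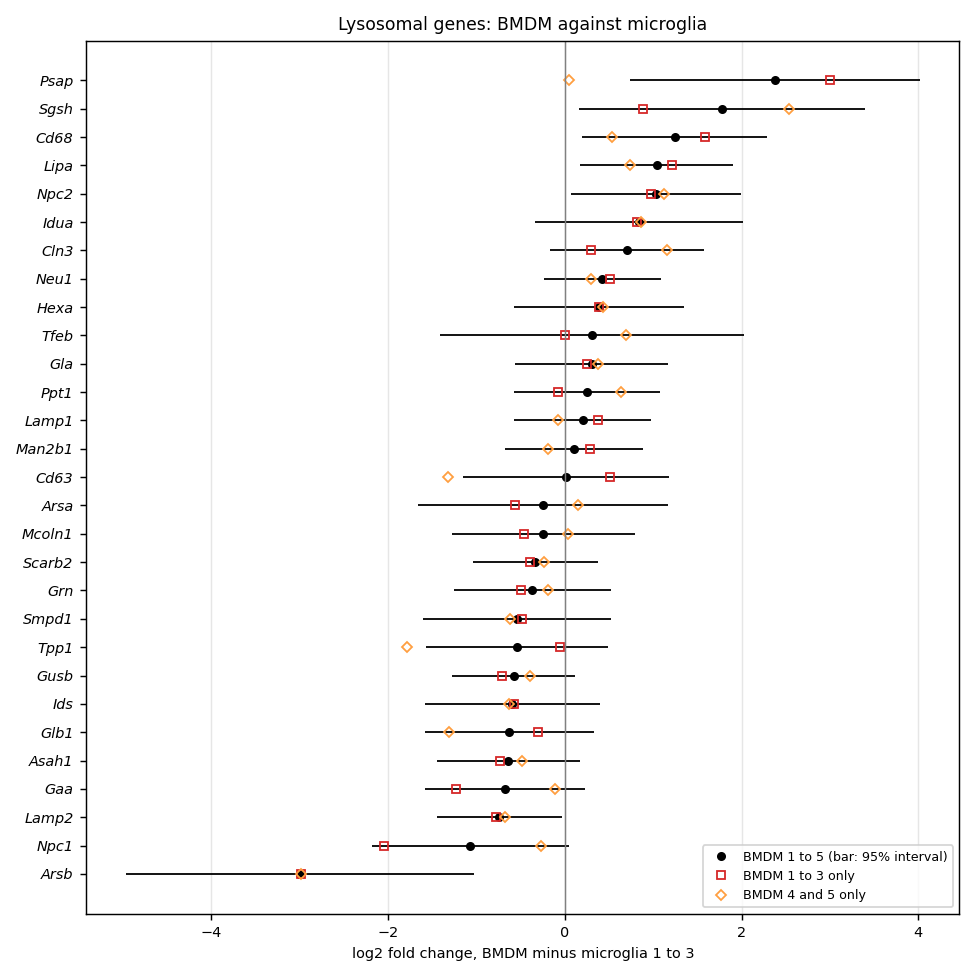
Log2 fold change of each of the 29 genes, BMDM minus microglia, on the x axis, with all 5 BMDM libraries (black, bar for the 95% interval), BMDM 1 to 3 only (red squares) and BMDM 4 and 5 only (orange diamonds), each against microglia 1 to 3. Values run from -3.00 for Arsb to 2.37 for Psap, and the estimates of Psap are 3.00 and 0.05 in the 2 subsets.

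With only BMDM 1 to 3 against microglia, 3 of the 29 were higher, Psap, Cd68 and Lipa, and 3 were lower, Npc1, Arsb and Gaa. In that fit 6.35% of all genes tested were higher and 8.11% lower, and the Gm42418 share also separated the groups, so cell population and that share cannot be told apart there. With only BMDM 4 and 5, a comparison added after the data were seen, none was called (0.0683% of all genes higher and 0.0372% lower). Without BMDM 5 alone, Psap and Cd68 were higher and Npc1 and Arsb lower (3.38% of all genes higher and 3.79% lower).

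**Figure D2:**
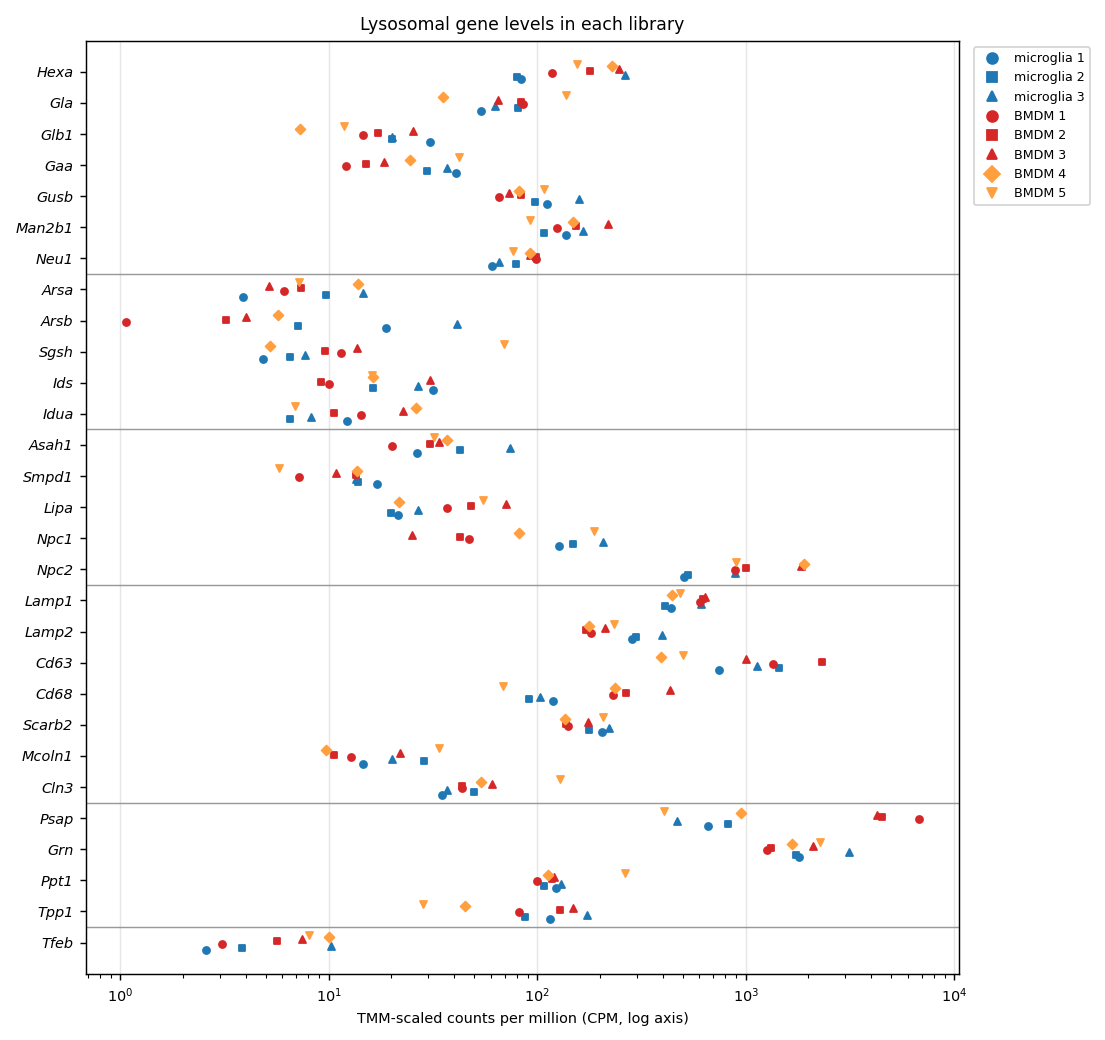
TMM-scaled CPM (log axis) of each gene in each of the 8 libraries, with horizontal lines between groups of genes by role. Blue marks are microglia, red BMDM 1 to 3 and orange BMDM 4 and 5. Arsb had 0 counts in BMDM 5, which is not drawn.

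The largest positive log2 fold change among the 29 was that of Psap, which was high in BMDM 1 to 3 and not in BMDM 4 and 5. Psap (chromosome 10, 60277627 to 60302597, GRCm38) encodes prosaposin, which is cut into the saposins that lift sphingolipids out of membranes for their hydrolases. It stood at 6802, 4526 and 4249.5 CPM in BMDM 1, 2 and 3, at 951 and 408 in BMDM 4 and 5. Microglia 1, 2 and 3 were at 663, 827 and 471 CPM. BMDM 4 was only slightly above the highest microglia library and BMDM 5 below all of them, so the groups overlapped. With all libraries the difference was 2.37 on the log2 scale (SE 0.77, adjusted p = 0.152), or 5.18-fold. It was 3.00 (SE 0.38, adjusted p = 0.00112) with only BMDM 1 to 3, 0.05 (SE 0.48, adjusted p = 0.98) with only BMDM 4 and 5, and 2.67 (SE 0.59, adjusted p = 0.0214) without BMDM 5. The lowest of BMDM 1 to 3 was 4.47 times the highest other library. Among the 9055 genes at such levels, 3 had BMDM 1 to 3 each at least 4 times every other library (0.0331%), namely Psap, Bcl2a1b and Rps19-ps6. That comparison was chosen after the values of Psap were seen. Psap made up 54.9%, 39.4% and 35.5% of the summed CPM of the 29 genes in BMDM 1, 2 and 3, and 13.6% and 6.23% in BMDM 4 and 5. In microglia its share was 5.53% to 12.6%. The summed CPM of the 29 was 11492 to 12384 in BMDM 1 to 3 and 5837 to 8523 in the other 5 libraries, but without Psap it was 5582 to 7730.0 and 5174 to 8052, respectively.

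Enzymes that work with saposins had smaller log2 fold changes than Psap. That of Arsa, which removes sulfate from sulfatide, was -0.24 (SE 0.66, adjusted p = 0.939). Gla, an alpha-galactosidase, was at 0.30 (SE 0.41, adjusted p = 0.846), and Asah1, the acid ceramidase, at -0.64 (SE 0.38, adjusted p = 0.529). Galc, the enzyme for galactosylceramide, was at 0.20 (SE 0.45, adjusted p = 0.919). None of the 4 passed the test, and with all libraries neither did Psap (adjusted p = 0.152).

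Grn encodes progranulin, a secreted growth factor that is also cut into granulins in the lysosome and binds prosaposin. Its levels were 1803, 1749 and 3131 CPM in microglia 1, 2 and 3 and 1262, 1317, 2099.7, 1665 and 2287 in BMDM 1 to 5. The groups overlapped, and the difference on the log2 scale was -0.37 (SE 0.42, adjusted p = 0.81). The ratio of Psap to Grn within a library was 5.39, 3.44 and 2.02 in BMDM 1, 2 and 3, 0.571 and 0.178 in BMDM 4 and 5, and 0.150 to 0.472 in microglia. Ppt1, a thioesterase that removes palmitate from proteins, was at 113 CPM in BMDM 4 and 99.997 to 120 in BMDM 1 to 3, and at 265 in BMDM 5, against 108 to 131 in microglia (log2 fold change 0.25, SE 0.39, adjusted p = 0.869). Tpp1, a tripeptidyl peptidase, was at 82.0, 129 and 148 CPM in BMDM 1 to 3, at 45.05 and 28.3 in BMDM 4 and 5, and at 116, 87.5 and 174 in microglia. The lowest values were those of BMDM 4 and 5, and BMDM 1 was also below all microglia libraries. Its log2 fold change was -0.54 (SE 0.48, adjusted p = 0.74) with all libraries and -1.79 (SE 0.44, adjusted p = 0.153) with BMDM 4 and 5 only.

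The partners of cholesterol export, Npc1 and Npc2, had log2 fold changes of opposite sign. NPC2 is a soluble protein that binds cholesterol in the lysosome and hands it to NPC1, a membrane protein that passes it out. Npc2 (chromosome 12, 84754562 to 84773152) was at 508, 528 and 892 CPM in microglia 1 to 3 and at 894, 1005, 1848, 1907 and 901 in BMDM 1 to 5. Every BMDM library was above every microglia library, by a small margin over microglia 3. The difference was 1.03 on the log2 scale (SE 0.45, adjusted p = 0.32), and DESeq2 called it at 1.12 (SE 0.37, adjusted p = 0.0493). Npc1 (chromosome 18, 12189692 to 12236400) was at 127, 149 and 207 CPM in microglia and at 47.0, 42.9, 25.2, 82.0 and 187 in BMDM 1 to 5. BMDM 1 to 4 lay below all microglia libraries and BMDM 5 among them. Its log2 fold change was -1.07 (SE 0.52, adjusted p = 0.394), -2.05 (SE 0.31, adjusted p = 0.00255) with BMDM 1 to 3 only, -0.27 (SE 0.45, adjusted p = 0.828) with BMDM 4 and 5 only, and -1.72 (SE 0.36, adjusted p = 0.0163) without BMDM 5.

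The ratio of Npc1 to Npc2 within a library does not depend on how libraries are scaled. It was 0.250, 0.283 and 0.232 in microglia 1 to 3, and 0.0526, 0.0426, 0.0136, 0.0430 and 0.208 in BMDM 1 to 5. All BMDM libraries were below all microglia libraries, BMDM 5 only slightly. This ratio and those below were chosen after the values were seen and carry no test. Of the 406 ratios that the 29 genes allow, 75 (18.5%) separated the groups in this way.

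**Figure D3:**
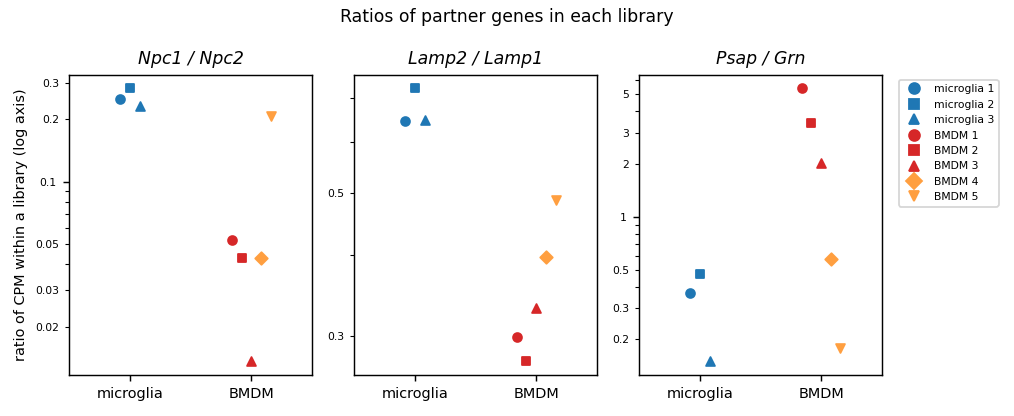
Ratio of CPM between partner genes within each library (log axis), for microglia 1 to 3 (blue), BMDM 1 to 3 (red) and BMDM 4 and 5 (orange). Npc1 to Npc2 and Lamp2 to Lamp1 are lower in every BMDM library than in every microglia library, while Psap to Grn overlaps.

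Of the other lipid enzymes, Lipa, the acid lipase that frees cholesterol and fatty acids from esters, was at 21.4, 19.9 and 26.7 CPM in microglia and at 37.0, 48.1, 71.3, 21.6 and 54.9 in BMDM 1 to 5. BMDM 4 alone lay within the microglia range. Its fold change was 1.04 on the log2 scale (SE 0.41, adjusted p = 0.249), 1.22 (SE 0.30, adjusted p = 0.0224) with BMDM 1 to 3 only and 0.74 (SE 0.48, adjusted p = 0.473) with BMDM 4 and 5 only. Smpd1, the acid sphingomyelinase, was at 13.6 to 17.0 CPM in microglia and 5.80 to 13.7 in BMDM (-0.54, SE 0.50, adjusted p = 0.75). Asah1 was at 26.6 to 74.3 CPM in microglia and 20.2 to 36.9 in BMDM.

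The paralogs LAMP1 and LAMP2, the most abundant proteins of the lysosomal membrane, were set against each other. Lamp2 (chromosome X, 38401357 to 38456454) was at 284, 298 and 396 CPM in microglia 1 to 3 and at 181, 172, 212, 177 and 234 in BMDM 1 to 5. Every BMDM library was below every microglia library. On the log2 scale the difference was -0.74 (SE 0.33, adjusted p = 0.334), -0.78 (SE 0.26, adjusted p = 0.0707) with BMDM 1 to 3 only and -0.68 (SE 0.35, adjusted p = 0.347) with BMDM 4 and 5 only, and so of like size in both subsets. Lamp1 (chromosome 8, 13159161 to 13175338) was at 440, 411 and 611 CPM in microglia and at 604, 628, 640, 445 and 482 in BMDM (0.20, SE 0.36, adjusted p = 0.895). The ratio of Lamp2 to Lamp1 was 0.646, 0.726 and 0.649 in microglia 1 to 3 and 0.299, 0.274, 0.331, 0.398 and 0.486 in BMDM 1 to 5, without overlap.

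Cd68, a glycoprotein of macrophage lysosomes and endosomes, was at 119, 91.8 and 103 CPM in microglia and at 232, 267, 435 and 237 in BMDM 1 to 4, but at 68.4 in BMDM 5. BMDM 5 was thus below all microglia libraries and the other BMDM above them. For all 5 BMDM libraries the log2 fold change was 1.24 (SE 0.49, adjusted p = 0.252), 1.58 (SE 0.31, adjusted p = 0.00732) with BMDM 1 to 3 only and 1.48 (SE 0.33, adjusted p = 0.0211) without BMDM 5. With BMDM 4 and 5 only it was 0.53 (SE 0.52, adjusted p = 0.679). Cd63, a tetraspanin of late endosomes and exosomes, was at 744, 1441 and 1132 CPM in microglia and at 1355, 2326, 1004, 393 and 499.9 in BMDM 1 to 5. Its log2 fold change was 0.01 (SE 0.55, adjusted p = 0.999), with 0.51 (SE 0.39, adjusted p = 0.404) in BMDM 1 to 3 and -1.32 (SE 0.42, adjusted p = 0.22) in BMDM 4 and 5. Scarb2, which encodes LIMP-2, a receptor that carries a hydrolase to lysosomes, was at 178 to 220 CPM in microglia and 137 to 207 in BMDM (-0.33, SE 0.33, adjusted p = 0.769). Mcoln1, a calcium channel of the lysosomal membrane, was at 14.6 to 28.6 and 9.71 to 33.9 CPM (-0.24, SE 0.49, adjusted p = 0.908). Cln3, a membrane protein mutated in juvenile Batten disease, was at 34.8 to 49.99 CPM in microglia, 43.6 to 60.5 in BMDM 1 to 4 and 128 in BMDM 5 (0.70, SE 0.41, adjusted p = 0.513, or 0.31 without BMDM 5).

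The 7 hydrolases of glycolipids and glycans gave no call, and their log2 fold changes lay between -0.68 and 0.42, with 4 positive and 3 negative. Hexa encodes the alpha subunit of beta-hexosaminidase, which breaks down GM2 ganglioside. It was at 83.4, 79.7 and 263 CPM in microglia 1 to 3 and at 118, 179, 248, 229 and 156 in BMDM 1 to 5, and microglia 3 exceeded all BMDM libraries. The log2 fold change was 0.39 (SE 0.45, adjusted p = 0.816), and 1.12 without microglia 3.

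Gaa, the acid alpha-glucosidase that digests glycogen, was at 41.0, 29.8 and 37.0 CPM in microglia and at 12.1, 15.02, 18.4, 24.7 and 42.3 in BMDM 1 to 5. BMDM 1 to 4 were below all microglia libraries and BMDM 5 above them. Its log2 fold change was -0.68 (SE 0.42, adjusted p = 0.565), -1.23 (SE 0.30, adjusted p = 0.0209) with BMDM 1 to 3 only and -0.12 (SE 0.40, adjusted p = 0.927) with BMDM 4 and 5 only. Gusb, a beta-glucuronidase, was at 97.8 to 159 CPM in microglia and 65.6 to 107 in BMDM (-0.58, SE 0.33, adjusted p = 0.49). Glb1, the beta-galactosidase of lysosomes, was at 20.02 to 30.8 and 7.32 to 25.5 CPM (-0.63, SE 0.45, adjusted p = 0.635). Neu1, a sialidase, was at 60.5 to 79.1 CPM in microglia and 76.4 to 99.0 in BMDM (0.42, SE 0.31, adjusted p = 0.646). Man2b1, an alpha-mannosidase, was at 108 to 167 and 92.3 to 219 CPM (0.11, SE 0.36, adjusted p = 0.952), and Gla at 53.9 to 80.7 and 35.2 to 138 CPM.

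Among 5 enzymes that cut sulfate esters and glycosaminoglycans, the largest difference was in Arsb, arylsulfatase B, which works on dermatan and chondroitin sulfate. Arsb (chromosome 13, 93771630 to 93943016) was at 18.9, 7.14 and 41.3 CPM in microglia 1 to 3 and at 1.07, 3.201, 4.00 and 5.73 in BMDM 1 to 4. BMDM 5 had 0 counts, which allows up to 0.415 CPM (3 counts, counting error only). All BMDM libraries were below all microglia libraries, which differed 5.78-fold among themselves. The log2 fold change was -3.00 (SE 0.92, adjusted p = 0.129), -2.98 (SE 0.67, adjusted p = 0.0139) with BMDM 1 to 3 only, -2.98 (SE 1.54, adjusted p = 0.347) with BMDM 4 and 5 only, and -2.68 (SE 0.67, adjusted p = 0.0329) without BMDM 5. Without microglia 3, the highest library, it was -2.29 (adjusted p = 0.658), and -3.44 without microglia 2, neither past the threshold. The end of Arsb is shared with an antisense gene model, Gm26527, which had 0 CPM in 7 libraries and 0.111 in microglia 3.

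Sgsh, the heparan sulfate sulfamidase, was at 4.84 to 7.68 CPM in microglia, 5.25 to 13.6 in BMDM 1 to 4 and 69.1 in BMDM 5. Its log2 fold change was 1.78 (SE 0.76, adjusted p = 0.305), and 0.66 without BMDM 5. Idua, an iduronidase, was at 6.54 to 12.2 CPM in microglia and 6.91 to 26.1 in BMDM (0.84, SE 0.55, adjusted p = 0.592). Ids, an iduronate sulfatase, was at 16.3 to 31.7 and 9.24 to 30.7 CPM (-0.60, SE 0.46, adjusted p = 0.68), and Arsa at 3.89 to 14.6 and 5.15 to 13.8 CPM. Apart from Arsb, the 5 enzymes overlapped between the groups.

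Tfeb itself had few counts, 23 to 92 in a library. It was at 2.58, 3.82 and 10.2 CPM in microglia 1 to 3 and at 3.06, 5.66, 7.44, 10.03 and 8.02 in BMDM 1 to 5. The log2 fold change was 0.31 (SE 0.81, adjusted p = 0.936), with a 95% interval from -1.42 to 2.03. Of its relatives, Tfe3 was at -0.09 (SE 0.47, adjusted p = 0.97) and Mitf at 0.33 (SE 0.34, adjusted p = 0.786).

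The element that TFEB binds, the CLEAR element with the core CACGTG, was looked for on both strands in the RefSeq promoter windows (GRCm38.p6, 250 bases before to 50 after each start site), which covered 27 of the 29 genes and 27025 genes in all. The element and its core read the same on either strand, and every match to the element also matches the core. Asah1 and Npc1 had no window. The core was present for 8 of the 27 (29.6%), Arsa, Cln3, Gaa, Gla, Glb1, Lamp1, Mcoln1 and Sgsh, and for 8.09% of all genes. Each of the 8 also held TCACGTG on one strand or the other, as did 4.29% of all genes, and Cln3 held the full element, as did 0.37%. The other 19 of the 27 held no core, so it is not a feature of the whole list. In the sites of the 8 genes, the core and its matching T, A or outer bases are in capitals and all others in lower case. Where the annotation has an exon of the gene, only 30 bases are shown, with 1 of 2 sites for Cln3 and Mcoln1.
Lamp1, chr8:13159080-13159160, plus strand: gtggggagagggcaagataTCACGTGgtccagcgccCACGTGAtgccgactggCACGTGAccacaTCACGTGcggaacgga
Gla, chrX:134601174-134601252, minus strand: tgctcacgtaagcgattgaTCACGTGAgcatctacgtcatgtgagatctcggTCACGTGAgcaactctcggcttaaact
Gaa, chr11:119267803-119267848, plus strand: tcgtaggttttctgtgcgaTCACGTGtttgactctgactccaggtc
Glb1, chr9:114401010-114401055, plus strand: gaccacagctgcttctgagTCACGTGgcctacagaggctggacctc
Mcoln1, chr8:3500462-3500491, plus strand: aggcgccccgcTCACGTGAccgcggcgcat
Cln3, chr7:126583340-126583369, minus strand: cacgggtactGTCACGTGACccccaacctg
Sgsh, chr11:119355522-119355551, minus strand: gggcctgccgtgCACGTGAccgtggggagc
Arsa, chr15:89477423-89477452, minus strand: tcaactcagtgTCACGTGttgtctgctcct

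Lamp1 held 4 cores with their centres from 58 to 12 bases before the start site, and Lamp2 held none. The 8 genes with the core had a median log2 fold change of -0.02 (-0.68 to 1.78, 4 of them negative) and the 19 without it 0.11 (-3.00 to 2.37, 8 negative), which describes these windows and is no test of binding. Psap held no core in either of its windows. The sequence before its first start site (chr10:60277378-60277626, plus strand) are shown as the promoter of the gene with the largest positive fold change.
Psap: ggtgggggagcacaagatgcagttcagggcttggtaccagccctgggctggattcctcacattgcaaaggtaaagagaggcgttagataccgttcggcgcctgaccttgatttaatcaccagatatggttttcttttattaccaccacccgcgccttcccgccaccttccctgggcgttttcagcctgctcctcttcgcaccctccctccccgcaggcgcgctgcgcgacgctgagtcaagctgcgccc

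Lists of other lysosomal genes gave 2 calls among the genes reported, Acp5 and Sort1. Over all genes tested, 1.11% were called higher and 0.814% lower. Of 26 further hydrolases and cofactors, 1 was higher and 0 lower (median -0.08). Acp5, the tartrate-resistant acid phosphatase of osteoclasts and activated macrophages, was at 4.26, 25.1 and 14.7 CPM in microglia 1 to 3 and at 220.5, 381, 269, 172 and 28.6 in BMDM 1 to 5. It was 14.6-fold higher in BMDM, at 3.87 on the log2 scale (SE 0.78, adjusted p = 0.0201), though BMDM 5 was only just above microglia 2. The adjusted p was above 0.05 without microglia 1, 2 or 3 (0.0741, 0.0557 and 0.184), where the log2 fold changes were 3.41, 4.51 and 3.83. The same held without BMDM 3 (3.79, adjusted p = 0.0501) and with BMDM 4 and 5 only (2.76, adjusted p = 0.221).

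Of 26 sorting genes, 1 was lower and 0 higher (median -0.11). This was Sort1, which encodes sortilin, a receptor that binds progranulin and prosaposin and carries cargo to lysosomes. Sort1 was at 32.8, 31.6 and 47.8 CPM in microglia and at 5.06, 5.66, 6.63, 0.159 and 1.94 in BMDM 1 to 5, and every BMDM library was far below every microglia library. On the log2 scale Sort1 was at -3.25 (SE 0.68, adjusted p = 0.0223), or 9.52-fold. The value was -2.67 with BMDM 1 to 3 only (adjusted p = 0.00108) and -5.13 with BMDM 4 and 5 only (adjusted p = 0.0923). Sort1 had 1 count in BMDM 4 and 14 in BMDM 5, so the size of the fold in that subset is uncertain. The call was lost without microglia 1, 2 or 3 (0.0562, 0.0542 and 0.132), at log2 fold changes of -3.35, -3.37 and -3.09.

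With edgeR no gene was called among 25 further membrane proteins and transporters (median 0.00), 19 subunits of the vacuolar ATPase, the pump that acidifies lysosomes (median -0.06), or 24 MiT/TFE factors and nutrient sensors (median -0.08). Unadjusted p-values from edgeR under 0.05 were found for 1 gene with BMDM higher and 3 lower in the first list, 0 and 2 in the second, and 2 and 0 in the last. Over all genes 6.49% were higher and 7.27% lower at that level. DESeq2 called 0 in each (3.74% of all genes higher and 1.95% lower). Weighted limma-voom called 0 higher and 1 lower in the first, 0 and 5 in the second and 3 and 2 in the last (6.46% of all genes higher and 10.1% lower). Without a count filter edgeR called 0 and 1, 0 and 1, and 1 and 0 (1.29% and 1.02%). Laptm4b was at -2.08 (SE 0.67, adjusted p = 0.155). Cd164 was at -1.17 (SE 0.43, adjusted p = 0.219). Of the ATPase subunits, Atp6v0a2 was at -1.35 (SE 0.46, adjusted p = 0.171), while Atp6v0a1 was at -0.94 (SE 0.37, adjusted p = 0.252). Rraga and Lamtor2, which anchor the kinase mTORC1 at the lysosome, were at 1.67 (SE 0.72, adjusted p = 0.316) for Rraga and 1.19 (SE 0.46, adjusted p = 0.24) for Lamtor2. With BMDM 4 and 5 only, Rraga was at -0.33. With BMDM 1 to 3 only, the calls were 0 higher and 1 lower, 0 higher and 3 lower, and 3 higher and 1 lower, where 6.35% of all genes were higher and 8.11% lower.

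**Figure D4:**
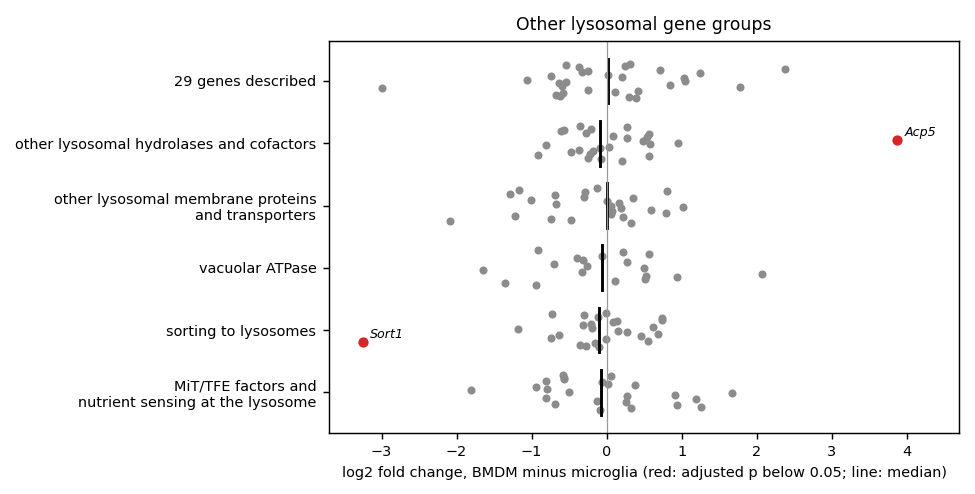
Log2 fold change, BMDM minus microglia, of the 29 genes and of 5 other lists of lysosomal genes. Each point is a gene, black lines are medians and red points passed the test, namely Acp5 and Sort1; medians lie between -0.11 and 0.01.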

How the data were processed

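RNA from sorted cells was made into libraries with a kit that reads the 3′ end of mRNA (QuantSeq, forward), sequenced from one end on an Illumina NextSeq500, per the labels' protocols. Tools listed without versions, per the submitters' processing notes, are STAR, featureCounts, cutadapt, FastQC and DESeq2, with the build mm10. The authors deposited raw counts per gene for 55450 genes. The strand setting and the treatment of reads that map to several places are not given in the sources used here, so reads of 7 genes whose last 500 bases share at least 75 bases (90% identity) with another gene (Gla, Mcoln1, Arsb, Sgsh, Lamp1, Ppt1 and Cd63) and of 10 with an exon on the opposite strand may be split or mixed, as may those of Glb1, which shares exon sequence with Tmppe on the same strand.

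From these counts, genes were kept by edgeR's filter (minimum count 10, total 15), libraries were scaled by TMM, and BMDM were compared with microglia by edgeR's quasi-likelihood test (edgeR 4.0.16, R 4.3.3), with Benjamini-Hochberg adjustment over 16467 genes. Standard errors were the log2 fold change over the square root of its F statistic, and intervals are at 95%. Alternatives used DESeq2 1.42.0, limma 3.58.1, other scalings and filters, and left out libraries. Positions are from the GENCODE annotation of GRCm38, the assembly of mm10. Promoter windows are RefSeq's, and transcript ends were compared with BLAST 2.17.0. Within each group no pair of libraries agreed within sampling noise (lowest chi-square per degree of freedom 21.1).

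The 29 genes, the other lists and the tests were chosen with earlier results of these data known. All 29 are given values. In each other list the called genes are named, or otherwise up to 2 genes with the largest absolute fold change at a mean of at least 20 CPM. Galc, Tfe3 and Mitf, and the promoter of Psap, were added after the values were seen. Some genes of the other lists are not reported here and were left out of those lists' counts, medians and sums, though not out of the fit.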

Additional observations from a re-analysis of the deposited data

Results flagged for a closer look

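In 4 of the 29 genes, 1 BMDM library lay further from the other 4 than Dixon's 95% criterion for 5 values allows. For like libraries with normally distributed values, chance alone gives this in about 1 of 20 groups. BMDM 4 and 5 had fewer genes with a count than the other BMDM libraries, so that rate need not hold here. The 4 of 29 can therefore not be read as an excess over it. The share of all genes that met this criterion is not given here. Whether such libraries are more frequent among the 29 than among other genes is therefore not known. Sgsh, the heparan sulfate sulfamidase, was at 69.1 CPM in BMDM 5 and at 5.25 to 13.6 in the other BMDM libraries. The thioesterase gene Ppt1 was at 265 CPM in BMDM 5 against 99.997 to 120.5, and Cln3, of the lysosomal membrane, at 128 CPM in BMDM 5 against 43.6 to 60.5. Arsa, arylsulfatase A, was at 13.8 CPM in BMDM 4 against 5.15 to 7.39. The ends of Sgsh and Ppt1 overlap in sequence with Card14 and Cap1; Card14 had 0 CPM in BMDM 5, and Cap1 was at 62.1 CPM there against 90.5 to 105 in BMDM 1 to 4.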

How the results depend on the processing

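Of 548 values of the 29 genes under 19 alternatives, 497 kept sign and side of the threshold, 29 passed it (8 genes, 6 alternatives) and 22 changed sign. The cause of these changes was not tested. Genes called higher and lower among all tested were 601 and 313 with DESeq2, 1063 and 1668 with limma-voom and sample quality weights, 403 and 318 with no filter, 1028 and 1312 with BMDM 1 to 3 only, and 11 and 6 with BMDM 4 and 5 only, an alternative chosen after seeing the data. Limma-voom alone gave 250 lower. Leaving out 1 library gave 58 (without microglia 3) to 536 (without BMDM 5) higher and 46 to 602 lower. Of the 29, DESeq2 called 2 higher, weighted limma-voom 4 higher and 3 lower, no filter 1 and 1 (Psap and Arsb), BMDM 1 to 3 only 3 and 3, and leaving out 1 library 0 to 2 in each direction. The replicate number as a block gave 1449 higher and 1774 lower among all genes and 4 and 4 of the 29. BMDM 4 and 5 have no microglia library of their number, so that fit takes its fold changes from BMDM 1 to 3. It is therefore not an alternative separate from BMDM 1 to 3 only. Libraries of the same number had correlations of 0.28, 0.13 and -0.01 in their deviations from the mean of their group. Such values cannot decide whether they share a mouse or a sort, and the labels do not say. Microglia 1 and 2 each correlated best with the BMDM library of their own number. Microglia 3 correlated best with BMDM 4 (0.27).

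Signs changed for Man2b1 (-0.0716 to 0.23 on leaving out 1 library, -0.19 with BMDM 4 and 5 only), Arsa (0.0767 with limma-voom, 0.0107 weighted, -0.63 to 0.14 leaving out 1 library, 0.16 with BMDM 4 and 5), Cd63 (-0.23 with limma-voom, -0.0146 with no filter, -0.43 to 0.24 leaving out 1 library, -1.32 with BMDM 4 and 5) and Ppt1 (-0.00745 with weighted limma-voom, -0.0983 to 0.36 leaving out 1 library, -0.0786 with BMDM 1 to 3, -0.0933 with the block). Tfeb was at -0.0499 to 1.013 leaving out 1 library and at -0.00276 with BMDM 1 to 3, and with BMDM 4 and 5 Lamp1 was at -0.0823, Mcoln1 at 0.037 and Rraga at -0.33. The median of all genes moved by 0.13 with library totals alone, by -0.31 with limma-voom, by -0.11 with its weights and by -0.28 with BMDM 4 and 5 only. The median of the 29 was 0.28, 0.07, 0.01 and -0.08 in these fits. With library totals the call of Sort1 was lost (adjusted p = 0.0808). A filter of at least 10 CPM in 3 libraries left 26 of the 29 to test. Low counts limit Arsb, Arsa, Sgsh and Tfeb, and Sort1 in BMDM 4 and 5.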
